A study of Rattus norvegicus with 3 samples.

Results

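Aire and Fezf2, the transcription regulators of promiscuous gene expression in the thymic medulla, were followed across every cell label of a stromal library from rat thymus. They are 2 of the 34034 genes of the count matrix and were chosen by name, with earlier results of these data known. The library came from 8-week-old Lewis rats, an inbred strain, with no further treatment or allele named in the labels. The tissue was digested with Liberase TH plus DNase I, and cells lacking CD45, the surface protein of blood-derived cells, were enriched by magnetic and flow sorting. A second library of thymocytes from rats of the same strain and age served for comparison, and a spatial section of the series gave no values per gene and was not analysed here. The number of animals behind each library, and whether they were pooled, is not given in the sources used here. With 1 sample in each group, differences could not be tested. Intervals are exact 95% intervals for counting error only (Poisson for levels, Clopper-Pearson for shares, conditional for ratios), and they say nothing of the spread between animals.

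Medullary thymic epithelial cells (mTEC) transcribe many genes that otherwise belong to other tissues, so that developing T cells that react to them can be removed or turned into regulatory cells. Aire works with the transcription machinery at such genes, mostly by releasing paused RNA polymerase, and is switched on in mature mTEC by signals through RANK (Tnfrsf11a), CD40 and the NF-kappaB pathway. Fezf2 is a zinc-finger factor first known from forebrain development that binds DNA directly and drives another set of tissue-restricted genes in mTEC. Loss of either gene leads to autoimmunity in mice.

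The promoters of both genes are shown because the 2 regulators share their main cell labels while differing in how far they reach beyond them. The 250 bases before each RefSeq start are given on the build GRCr8, both from the + strand, Aire at chr20:10635525-10635774 and Fezf2 at chr15:15203943-15204192. The count files were made on another build, so these positions apply to the RefSeq table alone. Capitals mark every match, on either strand, to the TATA box (TATAAA), the CCAAT box, the GC box (GGGCGG) and the kappaB site, searched by its consensus.
Aire: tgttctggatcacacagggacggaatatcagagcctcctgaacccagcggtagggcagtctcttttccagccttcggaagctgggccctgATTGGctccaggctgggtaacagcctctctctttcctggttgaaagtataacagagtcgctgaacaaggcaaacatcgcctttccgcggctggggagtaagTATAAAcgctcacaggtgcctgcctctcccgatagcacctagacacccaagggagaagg
Fezf2: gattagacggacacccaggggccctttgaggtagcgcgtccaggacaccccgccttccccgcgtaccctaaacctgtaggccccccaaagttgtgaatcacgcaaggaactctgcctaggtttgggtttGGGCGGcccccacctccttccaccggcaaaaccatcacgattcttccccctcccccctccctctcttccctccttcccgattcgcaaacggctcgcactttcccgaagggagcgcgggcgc
In the Aire window, TATAAA lay 59 to 54 bases before the start, and CCAAT was met on the minus strand at 160 to 156 bases. In the Fezf2 window, GGGCGG lay 121 to 116 bases before the start. Among 33469 windows of this length in the table, 12.9% held the TATA box, 34.0% the CCAAT box, 30.5% the GC box and 6.33% the kappaB consensus, which neither window held. GC content was 55.2% for Aire and 62.8% for Fezf2, against a median of 51.2%, and the windows held 9 and 18 CpG, against a median of 5. These are matches of letters, not measured binding sites.

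Of 16160 barcodes in the stromal library, the authors had labelled 13226. Labelled cells had a median of 9087.5 unique molecular identifiers (UMIs, each 1 captured RNA molecule) and 501 to 6999 genes. Cells labelled as thymic epithelium (TEC), including the mimetic labels for TEC that resemble other tissues, numbered 2295. The 3 mTEC labels are mTEC1 (482 cells), mTEC2 (61 cells) and a proliferating label, mTEC-prol (76 cells). Epcam, the general epithelial surface marker, was found in 94.8%, 82.0% and 94.7% of their cells, while Psmb11, the proteasome subunit of cortical TEC, had 0 UMIs in mTEC2 and mTEC-prol and 3 in mTEC1. The stromal and thymocyte libraries shared 38 barcodes, of which 8 stromal ones were epithelial, and none of the shared ones held an Aire UMI.

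Aire transcripts were concentrated in mTEC2. This label held 410 Aire UMIs, 468 CPM (UMIs per 1000000 UMIs of the label, interval 424 to 516). The proliferating label followed with 201 UMIs and 147 CPM (127 to 169), so mTEC2 stood 3.19-fold above it (2.68 to 3.79). Together they held 93.1% of the 656 Aire UMIs of labelled cells while making up 1.04% of those cells. The labels rest on the expression of these cells, which may include Aire, so this is a description.

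Every other label of at least 20 cells lay at or near the background. Pooled fibroblast labels (TMC1 to TMC4 and capFb, 8216 cells), which should lack both genes, held 29 Aire UMIs, 0.367 CPM (0.246 to 0.527). The level in mTEC2 was 1276-fold this (875 to 1930). The mTEC1 label held 3 UMIs in 482 cells, 0.466 CPM, a ratio to fibroblasts of 1.27 (0.248 to 4.10). Cortical TEC held 1 UMI, 0.201 CPM. The early progenitor label of TEC held 0 UMIs in 1018 cells, and its Poisson interval reaches 0.304 CPM. From the third place down, each label's interval against the next in the order included a ratio of 1, so that order cannot be read.

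Among non-epithelial labels, 39 cells held an Aire UMI and each held exactly 1. The mesenchymal label TMC4 had the highest number, 10 UMIs in 1249 cells, 0.865 CPM, and against all fibroblasts together, itself included, the ratio was 2.36 (1.02 to 4.98). Its UMIs enter both sides of this ratio and TMC4 was picked as the highest, so this interval is not exact. B cells of this library (179 cells), capillary endothelium, thymocytes, MEC, nmSC, aaTEC1, aaTEC2 and the goblet, muscle and tuft mimetic labels held 0. For the goblet label of 55 cells, the exact binomial interval of cells with an Aire UMI reached up to 6.49%, which does not limit the share of cells that express it. Of the labels under 20 cells, the basal mimetic one held 2 Aire UMIs in 1 of its 12 cells.

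**Figure D1:**
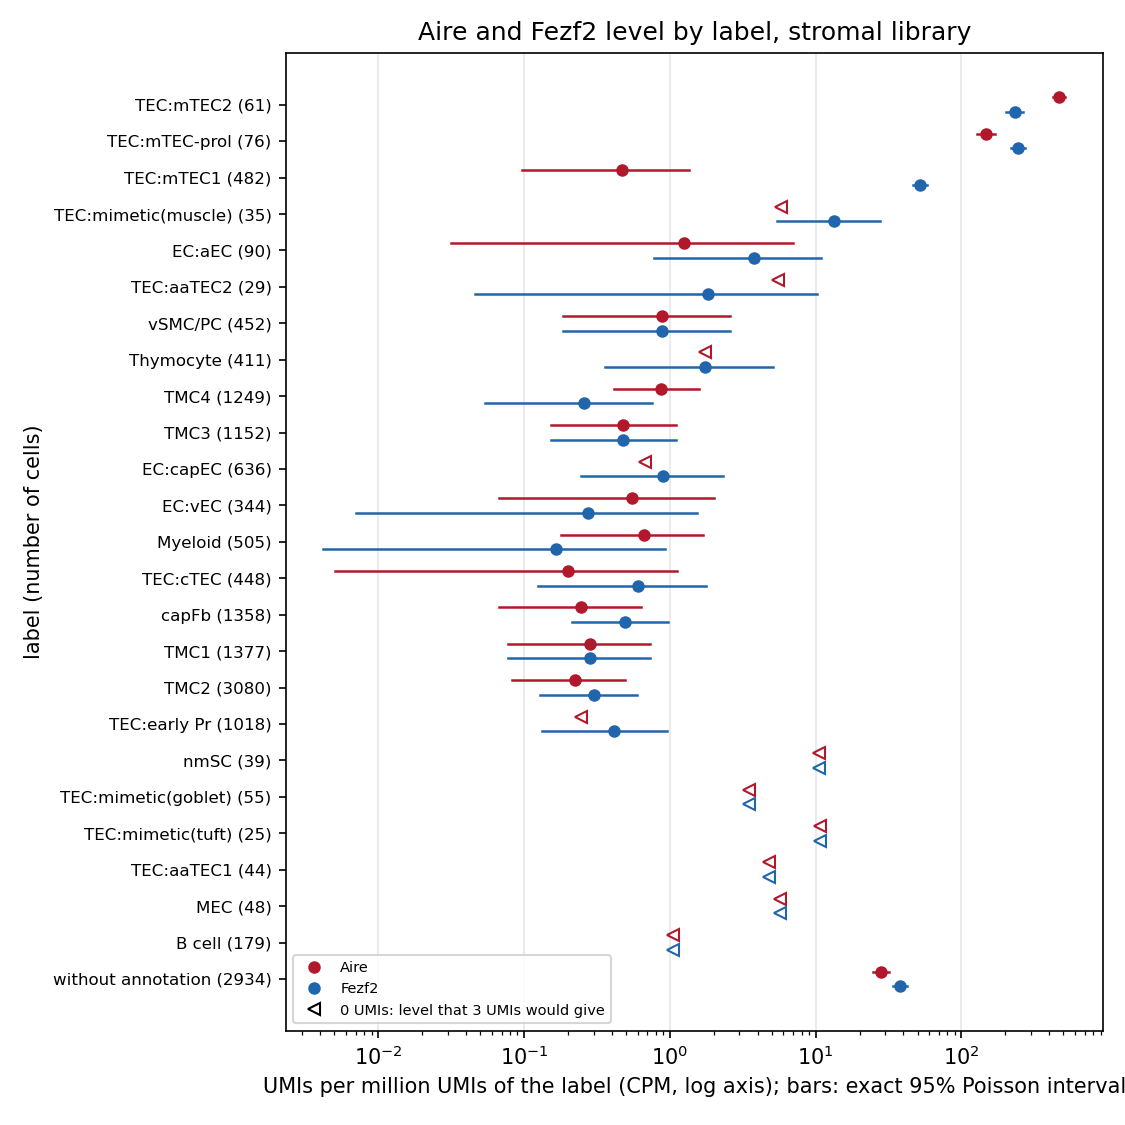
Level of Aire (red) and Fezf2 (blue) in each label of at least 20 cells and in barcodes without annotation, as CPM on a log axis with exact 95% Poisson intervals; open triangles mark labels with 0 UMIs at the level that 3 UMIs would give. Aire stands apart in mTEC2 (468 CPM) and mTEC-prol (147 CPM), and Fezf2 in these and in mTEC1 (52.2 CPM).

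Fezf2 reached further into the lineage. Its level in mTEC-prol, 244 CPM (219 to 272) from 334 UMIs, and in mTEC2, 232 CPM (201 to 266) from 203 UMIs, could not be ordered, with a ratio of 1.05 (0.882 to 1.26). In mTEC1 it reached 52.2 CPM (46.8 to 58.1) from 336 UMIs, 4.44-fold below mTEC2. These 3 labels held 91.6% of the 953 Fezf2 UMIs. Fibroblast labels held 28 UMIs, 0.354 CPM (0.236 to 0.512).

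Outside these labels, the muscle mimetic label followed with 7 UMIs in 3 of 35 cells, 13.4 CPM (5.40 to 27.7). Of labels under 20 cells, TEPC held 14 UMIs in 2 of 9 cells, 13 of them in a single cell, and the basal mimetic label 7 UMIs in 3 of 12 cells. Against fibroblasts, cortical TEC (3 UMIs, 0.602 CPM) stood at 1.70-fold (0.330 to 5.49) and early progenitors (5 UMIs, 0.412 CPM) at 1.16-fold (0.350 to 3.05). Arterial endothelium held 3 UMIs in 3 of 90 cells, 3.75 CPM and 10.6-fold (2.06 to 34.2). Goblet and tuft mimetic cells, aaTEC1, MEC, nmSC and B cells held 0.

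Within mTEC1, Fezf2 lay almost wholly in cells of the authors' cluster TEC-d, the cluster that also held 57 of 61 mTEC2 and 70 of 76 mTEC-prol cells. Of the 336 UMIs, 332 were in its 232 mTEC1 cells, 89.7 CPM (80.3 to 99.8), with a UMI in 51.7% of cells (45.1 to 58.3). The 176 mTEC1 cells of cluster TEC-b held 2 UMIs, 1.08 CPM (0.131 to 3.91), at a median depth of 10139 UMIs against 15129. The 54 of TEC-c held 1 UMI at a median of 13907.5 UMIs. The clusters were made by the authors from the genes of these cells, so this split is a description.

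In single mTEC2 cells, Aire ranged from 0 to 43 UMIs with a median of 2. It was found in 40 of 61 cells, 65.6% (52.3 to 77.3), and 17 cells held 10 or more UMIs. The positive cells had a median of 7 UMIs, and per cell their level ran from 29.2 to 2206 CPM with a median of 456. In mTEC-prol, 24 of 76 cells held Aire, 31.6% (21.4 to 43.3), with a median of 4.5 and up to 31 UMIs among them. The ranges of the 2 labels overlap, and each includes cells at 0.

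Fezf2 was found in 38 of 61 mTEC2 cells, 62.3% (49.0 to 74.4), in 52 of 76 mTEC-prol cells, 68.4% (56.7 to 78.6), and in 124 of 482 mTEC1 cells, 25.7% (21.9 to 29.9). Its highest cells held 19, 17 and 15 UMIs. In fibroblasts 0.353% of cells held Aire and 0.329% Fezf2, at a median depth of 9006.5 UMIs against 13378 in mTEC2, 16804.5 in mTEC-prol and 11915.5 in mTEC1. With each cell thinned to 5000 UMIs, which left out 12 mTEC2, 8 mTEC-prol and 72 mTEC1 cells, Aire was found in 55.1% of mTEC2, 20.6% of mTEC-prol, 0.244% of mTEC1 and 0.253% of fibroblasts. Fezf2 then stood at 55.1%, 58.8%, 16.1% and 0.186%. In mTEC1 the Aire share lay at that of fibroblasts and the Fezf2 share above it.

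**Figure D2:**
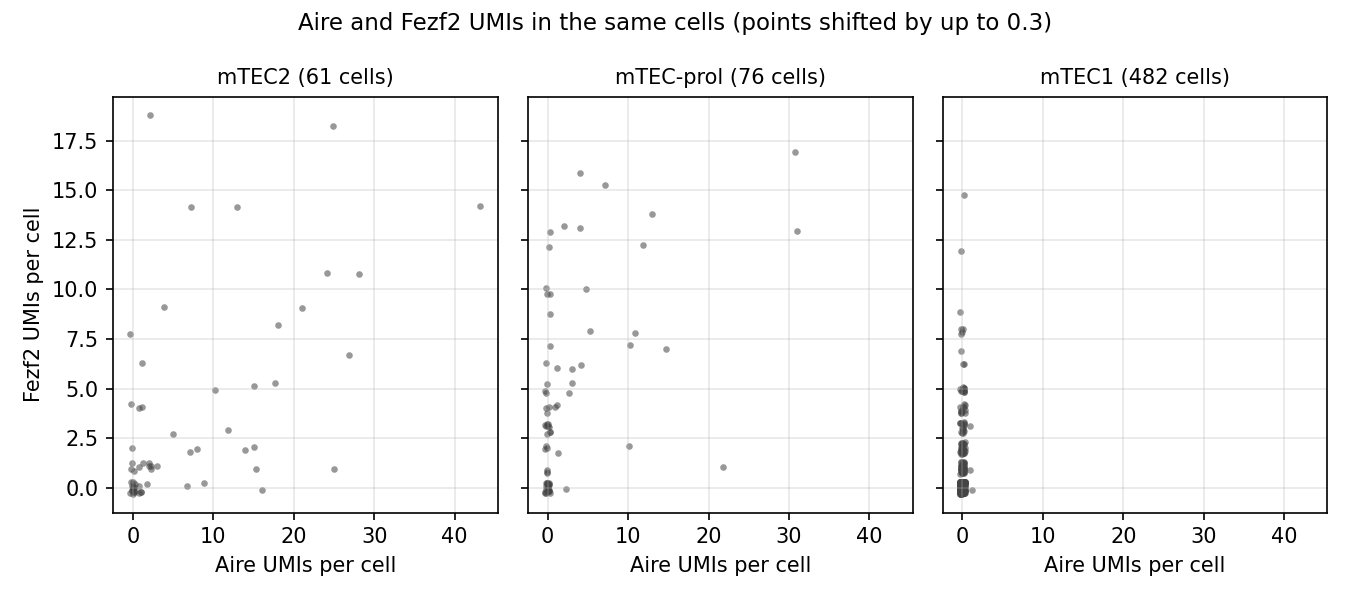
Aire UMIs (horizontal axis) against Fezf2 UMIs (vertical axis) per cell in mTEC2, mTEC-prol and mTEC1, with points shifted at random by up to 0.3. The 32 mTEC2 and 23 mTEC-prol cells with both genes spread over the panels, 29 mTEC-prol cells hold Fezf2 alone on the left edge, and no mTEC1 cell exceeds 1 Aire UMI.

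Most cells with Aire in mTEC2 and mTEC-prol also held Fezf2. In mTEC2, 32 cells held both, 8 only Aire, 6 only Fezf2 and 15 neither. Fezf2 was thus found in 80.0% of Aire-positive cells (64.4 to 90.9) and 28.6% of Aire-negative cells (11.3 to 52.2). The Fezf2 level was 272 and 89.3 CPM, a ratio of 3.04 (1.85 to 5.33). Aire-positive cells were deeper, with a median of 17096 UMIs against 7652. With both genes read after thinning to 5000 UMIs per cell, the shares were 77.8% and 27.3%.

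In mTEC-prol the overlap ran mainly one way. Of 24 Aire-positive cells 23 held Fezf2, 95.8% (78.9 to 99.9), but of 52 Fezf2-positive cells 23 held Aire, 44.2% (30.5 to 58.7). Among Aire-negative cells 29 of 52 held Fezf2, 55.8% (41.3 to 69.5). The Fezf2 level was 387 CPM with Aire and 162 CPM without, a ratio of 2.39 (1.91 to 2.99). Aire-positive cells were deeper here too, with a median of 24196.5 UMIs against 14051.5. With both genes read after thinning to 5000 UMIs per cell, Fezf2 was found in 92.9% of Aire-positive and 50.0% of Aire-negative cells. In mTEC1, 122 cells held Fezf2 alone, 2 both and 1 Aire alone. Over all 2295 epithelial cells, 57 held both, 12 only Aire and 172 only Fezf2.

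Promiscuous expression raises the number of different genes a cell can transcribe, so genes per cell were compared at matched depth, with Aire itself not counted. Before thinning, Aire-positive mTEC2 cells had more genes than Aire-negative ones, a median of 4990 against 3832, at 20133 against 11541 UMIs. At 5000 UMIs per cell the order was not kept. The 34 Aire-positive cells deep enough ranged from 1076 to 2724 genes with a median of 2258 (quartiles 2134.5 and 2463.75). The 15 Aire-negative cells ranged from 1507 to 2627 with a median of 2356 (quartiles 1919 and 2457). The ratio of medians was 0.958, and the quartile ranges overlap. Calculated as the number of genes 5000 UMIs would yield, with no random draw, the medians were 2282 and 2336.

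Mitochondrial RNA moved with this comparison. The deep enough Aire-positive mTEC2 cells had a median of 0.956% mitochondrial ribosomal UMIs and the Aire-negative ones 1.60%. Among cells below the label's median mitochondrial share the ratio of genes per cell turned to 1.23, on 17 against 5 cells. Of the 40 Aire-positive cells 13 were paired, each with its own Aire-negative cell within 10% of their UMIs, giving a ratio of 1.00, with the Aire-positive cell higher in 8.

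In mTEC-prol, Aire-positive cells had fewer genes at matched depth, a median of 2278 (quartiles 2211 and 2505, n = 21 cells) against 2496 (2365 and 2598.5, n = 47 cells), a ratio of 0.913. The lower quartile of the Aire-negative cells lay above the median of the Aire-positive ones, while the ranges, 2014 to 2645 for Aire-positive and 1759 to 2706 for Aire-negative cells, overlap. The ratio was under 1 in each alternative run for this label, and in the 22 pairs that 24 Aire-positive cells gave the Aire-positive cell was higher in 6. Over all epithelial labels the medians were 2279.5 and 2334. For Fezf2 the ratios of positive to negative cells were 0.998 in mTEC2, 0.992 in mTEC-prol and 1.02 in mTEC1. The median at 5000 UMIs of the 10 epithelial labels with at least 20 cells ran from 2289 genes in mTEC2 to 2470 in mTEC-prol. No excess of genes in Aire-positive cells was detectable at 5000 UMIs per cell in these labels taken whole.

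**Figure D3:**
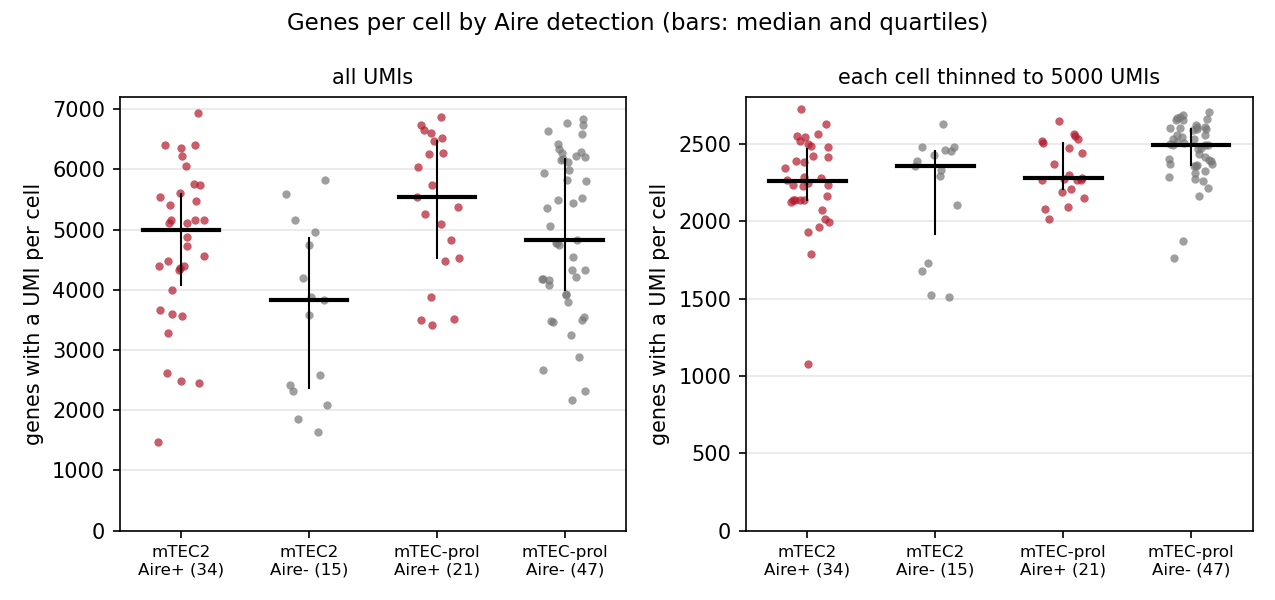
Genes with a UMI per cell in mTEC2 and mTEC-prol by Aire detection, for cells of at least 5000 UMIs, with all UMIs (left) and after thinning to 5000 UMIs (right); points are cells, bars the median and quartiles. The medians of Aire-positive cells lie above those of Aire-negative cells on the left (4990 against 3832 in mTEC2) and below them on the right (2258 against 2356).

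The genes that switch Aire on and those it works with were read in 2 ways: between mTEC2 and mTEC1, and between Aire-positive and Aire-negative cells of 1 label. A gene was called when its CPM differed more than 2-fold on at least 20 UMIs, with counts under 3 set to 3. Between mTEC2 and mTEC1, 15.6% of 13597 genes were called higher and 14.2% lower. Of the 13 genes upstream of Aire, 4 were higher and 3 lower. Tnfrsf11a, the receptor RANK, stood at 276 CPM in mTEC2, 218 in mTEC-prol and 51.3 in mTEC1, a ratio of mTEC2 to mTEC1 of 5.39 (4.55 to 6.38). Cd40 was 2.45-fold higher (2.05 to 2.93) and Nfkb2, the NF-kappaB subunit of the alternative pathway, 2.51-fold (2.00 to 3.13). Traf6, the adaptor that carries RANK signals, was the other gene called higher. Ltbr, the lymphotoxin beta receptor, was lower, at 25.1 against 66.5 CPM, together with Ets1 and Ets2, transcription factors of the ETS family.

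Of the 18 genes for partners of Aire, only Sirt1 was called, at 179 CPM in mTEC2 against 25.5 in mTEC1, 7.04-fold (5.62 to 8.81). Sirt1 encodes a deacetylase that acts on Aire. In mTEC-prol it stood at 52.7 CPM, and its level in mTEC2 was the highest of the labels, with early progenitors at 26.5 CPM and cortical TEC at 23.9. The other 17 partners, among them the kinase subunit Prkdc, the topoisomerases Top1 and Top2b and the elongation kinase Cdk9, were within 2-fold between the 2 labels. Among all genes on at least 100 UMIs, 8.84% of 9018 were called higher and 15.7% lower in mTEC2, and Ibsp, bone sialoprotein, had the largest ratio among genes with a symbol, ahead of Aire itself. Chd4, a chromatin remodeller that works with Fezf2, was 0.923-fold (0.763 to 1.11).

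Within mTEC2, 15.7% of 7183 genes were called higher and 13.8% lower in Aire-positive cells. Of 11 measured upstream genes, Relb, the partner of Nfkb2, was called higher, at 166 against 73.5 CPM and 2.26-fold (1.30 to 4.27). Tnfrsf11a was 1.82-fold higher (1.25 to 2.74), short of the limit, and was found in 31 of 40 Aire-positive and 7 of 21 Aire-negative cells. Their median ratio was 1.42, against 1.04 over all genes measured. Of 15 measured partners, Sirt1 was higher at 216 against 47.3 CPM, 4.57-fold (2.34 to 10.2), in 25 of 40 against 6 of 21 cells. Cdk9 was higher on 32 and 3 UMIs, 2.97-fold (0.928 to 15.1), and the acetyltransferase gene Crebbp lower, 0.498-fold (0.311 to 0.814). The partners' median ratio was 0.958.

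Mature mTEC genes set mTEC2 apart from mTEC1 as a block, with 14 of 14 called higher. The authors' labels rest on the expression of these cells, which may include these genes, so this contrast is a description. They include the costimulatory molecule Cd86 (86.8 against 0.466 CPM), the class II regulator Ciita (58.3 against 7.62 CPM) and Ccl22, a chemokine that draws medullary thymocytes (771 against 2.80 CPM). Thymocyte genes summed to 190 CPM in mTEC2 and 40.3 CPM in mTEC1, with 5 of 7 measured ones called higher, and their part in these differences was not tested. Ptcra, one of the genes on that list, gave 60 of the 166 UMIs in mTEC2. It stood at 68.6 CPM there and at 61.8 CPM in the label Thymocyte of this library, an order that was not tested. Within mTEC2, 4 of 14 mature mTEC genes were higher and 2 lower with Aire, at a median ratio of 1.42. Ciita was 3.27-fold higher in Aire-positive cells (1.19 to 12.5), Tnfrsf11b, the decoy receptor for RANK ligand, 2.14-fold (1.60 to 2.91), and Cd86 and Pdcd1lg2, a ligand of PD-1, were the others. Ccl22 was lower, at 526 against 1655 CPM and 0.318-fold (0.272 to 0.371), and 180 of its 675 UMIs lay in 1 cell. Ccl17, its close relative, was lower on 17 against 187 UMIs, 155 of them in 1 cell.

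Of the 8 genes on the later-stage list, only Krt10 and Pigr had at least 20 UMIs in mTEC2, and both were higher with Aire. Of 9 measured epithelial markers in mTEC2, Krt5, Krt14 and Foxn1 were called higher with Aire and 0 lower. Krt8 and Krt18 did not pass, at 1.34-fold (1.18 to 1.52) and 1.93-fold (1.68 to 2.23). Krt10, a keratin of differentiating epidermis used here for the later stage, stood at 905 CPM in Aire-positive and 84.0 CPM in Aire-negative cells, 10.8-fold (6.58 to 19.0), in 29 of 40 against 5 of 21 cells. Pigr, the polymeric immunoglobulin receptor, was 4.73-fold higher (1.95 to 14.9). The basal keratins Krt5 and Krt14 were 4.98-fold (3.60 to 7.06) and 4.11-fold (2.34 to 7.85) higher, and Foxn1, the master regulator of TEC, 2.38-fold (1.09 to 6.18).

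Markers of other cells differed between these groups as well. The 6 fibroblast markers summed to 2117 CPM in Aire-positive and 6387 CPM in Aire-negative mTEC2 cells, with 3 of 5 measured ones called lower and 0 higher. Per cell they ran from 0 to 711 UMIs with a median of 3 in the former and from 0 to 314 with a median of 5 in the latter, and none of the 6 was at 0 in either. The 10 thymocyte genes summed to 216 CPM (183 to 254) and 94.5 CPM (56.0 to 149), from 0 to 37 and 0 to 7 UMIs per cell, with 3 of 3 measured ones called higher. One of these is Ptcra, with 57 of the 148 UMIs in Aire-positive and 3 of 18 in Aire-negative cells. The sum and the filter on thymocyte UMIs thus also count a gene whose level in mTEC2 was near that in the label Thymocyte. Rag1 was at 0 in both groups, and Cd3e, Cd8b and Lat were at 0 in the Aire-negative cells. Myeloid markers summed to 209 and 415 CPM, with Itgax, Flt3 and Xcr1 at 0 in both. Cells with 3 or more thymocyte UMIs made up 12 of 40 and 1 of 21. The 11 epithelial markers summed to 7073 and 4113 CPM. Without cells of 3 or more thymocyte UMIs, 1 upstream gene (Relb), 3 partners (Sirt1, Parp1 and Cdk9) and 3 mature genes (Cd86, Ciita and Pdcd1lg2) were higher. The same 2 mature genes as before, Ccl22 and Ccl17, were lower, together with Fgf21. Crebbp, lower before, and Tnfrsf11b, higher before, were no longer called. The part of fibroblast and myeloid RNA in these differences was not tested.

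Lists of tissue-restricted genes known from mouse to need Aire or Fezf2 were counted next. Of 17 Aire-dependent genes, 7 had at least 20 UMIs in mTEC2 and mTEC1 together. Of these 5 were higher in mTEC2, namely Ins2 (insulin, 189 against 23.9 CPM), Sst (somatostatin, 222 against 0.311), Tff3 (a trefoil peptide of goblet cells, 426 against 0.622), Apoa1 (an apolipoprotein, 105 against 0.311) and Csn2 (beta-casein, 39 UMIs against 0, at least 95.5-fold higher at a floor of 3 UMIs per label). S100a8 and S100a9, granulocyte proteins, were lower, at 19.4 against 241 and 25.1 against 299 CPM. In mTEC1, single cells held 913 of 1548 S100a8 and 1224 of 1924 S100a9 UMIs. The label Myeloid stood at 49371 and 71122 CPM for these 2 genes. Of 5 measured Fezf2-dependent genes, Apob, Apoc3, Resp18 and Coch were higher in mTEC2. Apob and Apoc3 had their highest level there. Coch stood at 19.4 CPM in mTEC2 but at 4827 CPM in aaTEC1 and 4398 CPM in the goblet label. Resp18 stood at 22.9 CPM in mTEC2, below 29.7 CPM in the label Thymocyte. In mTEC-prol, where Fezf2 stood at 244 CPM, Apob held 2 UMIs, Apoc3 and Resp18 0 and Coch 17. In 61 mTEC2 cells, Ins2 was found in 26, Apob in 12, Sst in 10, Apoc3 in 5 and Tff3, Csn2 and Apoa1 in 4 each. Besides mTEC1, Ins2 also stood at 15.8 CPM in early progenitors, 15.0 CPM in cortical TEC and 32.0 CPM in the tuft label. How much of its detection in mTEC2 reflects this wider level was not tested.

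Of 6 measured Aire-dependent genes in mTEC2, 0 were called higher in Aire-positive cells and 4 lower, with a median ratio of 0.193, where 15.7% of all genes were higher and 13.8% lower. Without cells of 3 or more thymocyte UMIs, Ins2 was called higher and the same 4 lower. Single cells held large parts of these sums. Of 373 Tff3 UMIs 351 lay in 1 Aire-negative cell, and the highest cells held 72 of 194 Sst, 58 of 92 Apoa1 and 20 of 39 Csn2 UMIs. Ins2 was found in 17 of 40 Aire-positive and 9 of 21 Aire-negative cells, at 209 against 116 CPM and 1.81-fold (1.15 to 2.97), with 93 of 165 UMIs in 1 cell. Of 3 measured Fezf2-dependent genes, Apoc3 was called higher with 35 of 40 UMIs in 1 cell.

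On at least 100 UMIs, 15.4% of 1588 genes were called higher and 7.56% lower in Aire-positive mTEC2 cells, and the 10 with the largest ratio were found in 2 to 27 Aire-positive cells each. Cd164l2, a gene for a sialomucin-like protein, had 336 against 2 UMIs, in 27 of 40 and 2 of 21 cells, and Hes6, a transcription factor of the Hes family, had 760 against 12 UMIs, in 26 and 8 cells. In 3 of them 1 cell held nearly all UMIs: 384 of 388 UMIs of Ctsg (cathepsin G of granulocytes), 97.7% of those of Cryab (a lens crystallin) and 175 of 176 of Il9 (a cytokine) each lay in 1 cell. Krt71, a hair follicle keratin, was found in 13 of 40 against 2 of 21 cells, and Prg2, an eosinophil granule protein, in 13 against 3. Adarb2, Ccl11 and Lrrc4c completed the 10 highest, in 12, 3 and 15 Aire-positive cells.

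On the other side stood Gzmb, Tff3, Tff2, Glycam1, Ccl20, Dlgap2, Ccl17, Atf3, Slc7a11 and Abca8a. Gzmb, a granule protease, had 245 UMIs in 5 Aire-negative cells and 0 in Aire-positive cells. Tff2 had 156 of 161 UMIs in 1 cell, and Dlgap2 136 of 147. Leaving out each gene's highest cell, 186 genes were higher and 132 lower in place of 245 and 120, of which 162 and 66 were the same genes.

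In mTEC-prol the mature genes did follow Aire. Among 8679 genes 8.37% were called higher and 16.4% lower in Aire-positive cells, and of 11 measured mature genes 9 were higher and 0 lower, with a median ratio of 3.41 against 0.916 over all genes. The class II genes RT1-Da (4415 against 841 CPM) and RT1-Ba (3441 against 984 CPM) were 5.25-fold (4.82 to 5.71) and 3.50-fold (3.22 to 3.80) higher. Ciita stood at 79.7 against 5.78 CPM, and Cd86 at 37 UMIs in 6 cells against 0, at least 21.3-fold higher at a floor of 3 UMIs, though 28 of the 37 lay in 1 cell. Tnfrsf11a was 2.95-fold higher (2.32 to 3.76), in 23 of 24 against 32 of 52 cells. Of the other 12 upstream genes Nfkb1, Irf8, Ets1 and Ets2 were lower and none higher. Of 18 partners 0 were higher and 1, the SUMO ligase gene Pias1, lower, and Sirt1 stood at 65.8 and 45.1 CPM.

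Of 9 measured epithelial markers in mTEC-prol, Cldn3 was called higher with Aire and Krt14 and Ccl21 lower. Ccl21, a chemokine that attracts positively selected thymocytes, stood at 213 CPM in Aire-positive and 10171 CPM in Aire-negative cells, 0.0210-fold (0.0172 to 0.0254). Its level was 12495 CPM in mTEC1 and 22085 CPM in the mesenchymal label TMC4. Krt14 was 0.170-fold (0.146 to 0.197), and Krt15, a basal keratin, had 3 against 392 UMIs. Of the 2 measured later-stage genes, Krt10 was 9.66-fold higher (7.82 to 12.0) and Grhl3 was not called. Of 6 cell cycle genes 0 were higher and 1, the replication gene Mcm2, was lower (3 against 30 UMIs). Mki67, the proliferation marker, stood at 295 and 379 CPM, 0.778-fold (0.636 to 0.947), in 19 of 24 and 38 of 52 cells.

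On at least 100 UMIs, 7.25% of 2828 genes were called higher and 11.2% lower in Aire-positive mTEC-prol cells. The 10 with the largest ratio, a set looked at only after the values were seen, included Scn9a, a sodium channel of sensory neurons, in 16 of 24 against 1 of 52 cells, and Cyp26a1, which breaks down retinoic acid, in 19 against 5. Cxcl11, a chemokine, was found in 12 against 2 cells with 180 of 244 UMIs in 1, and Ibsp, bone sialoprotein, in 9 against 2 with 166 of 338 in 1. S100a8, S100a9, Camp, RatNP-3b and Np4, genes of granulocytes, and Orm1, an acute phase protein, rested on single cells, with 704 of 736 S100a8 UMIs and all 138 Orm1 UMIs in 1 cell each. The lowest besides Ccl21 and Krt15 included Tnc, Col4a1 and Spon1, genes of the matrix, and Il2ra, an interleukin-2 receptor chain, at 6 against 279 UMIs. Thymocyte genes summed to 83.7 CPM with Aire and 22.0 without, fibroblast markers to 177 and 366 CPM and mural markers to 45.8 and 616 CPM. Ptcra gave 31 of the 42 thymocyte UMIs of the Aire-positive cells, where Cd3d, Cd3e, Cd3g, Rag1, Lck and Lat were at 0. Acta2, at 751 CPM in mTEC1, gave 21 of 23 mural UMIs with Aire and 529 of 533 without, and Rgs5 was at 0 in both. Myeloid markers summed to 143 and 5.78 CPM, with 54 of the 72 UMIs of the Aire-positive cells in 1 cell, and Csf1r and Xcr1 were at 0 in both. The part of these cells' RNA was not tested. Without the 3 cells with 3 or more thymocyte UMIs, 7 of 10 measured mature genes remained higher and 0 were lower.

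**Figure D4:**
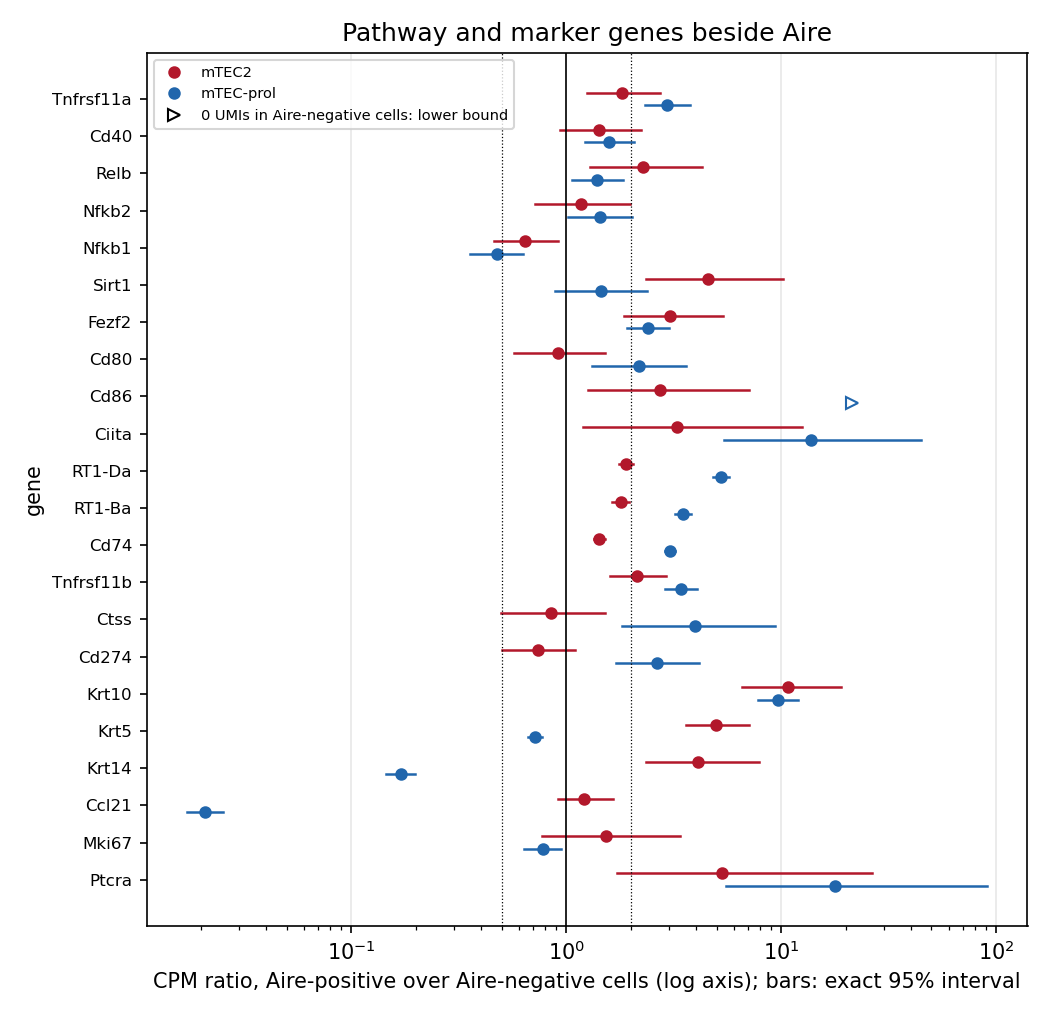
Ratio of CPM in Aire-positive to Aire-negative cells of mTEC2 (red) and mTEC-prol (blue) for Fezf2 and a selection of list genes. The axis is logarithmic with exact 95% intervals, dotted lines mark 2-fold and the triangle a lower bound. Genes not drawn include Ccl22, Ccl17 and Crebbp, lower in mTEC2, and Cdk9, Pdcd1lg2 and Pigr, higher there. Irf8, Ets1, Ets2 and Pias1, lower in mTEC-prol, and the tissue-restricted genes are not drawn either. The class II genes RT1-Da and RT1-Ba lie at 1.90 and 1.79 in mTEC2 and at 5.25 and 3.50 in mTEC-prol, and Ccl21 at 1.22 and 0.0210.

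Fezf2-positive mTEC1 cells were compared with Fezf2-negative ones in the same way, where 6.36% of 12688 genes were called higher and 7.72% lower. Among mTEC1 cells of at least 5000 UMIs, the Fezf2-positive ones had a median of 20998 UMIs against 12107. Depth was not matched here or within cluster TEC-d, and its part in these comparisons was not tested. Tnfrsf11a was 2.59-fold higher (2.07 to 3.25), Cd80 2.64-fold (1.83 to 3.83) and Tnfrsf11b 3.68-fold (3.08 to 4.40). Relb was 1.62-fold higher (1.39 to 1.87). Of the lists, 1 of 13 upstream genes, 1 of 18 partners (Top2a) and 2 of 10 measured mature genes were called higher, and 1 mature gene, RT1-Da, lower at 0.497-fold (0.466 to 0.529). The differences were smaller within the cluster that holds Fezf2. Among mTEC1 cells of cluster TEC-d alone, 120 positive and 112 negative, Tnfrsf11a stood at 86.2 and 83.2 CPM, 1.04-fold (0.821 to 1.31), Relb at 0.985-fold (0.828 to 1.17), Cd80 at 1.16-fold (0.783 to 1.75) and Tnfrsf11b at 1.59-fold (1.32 to 1.93).

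On at least 100 UMIs, 3.71% of 8364 genes were called higher and 5.12% lower, and some of the largest, looked at after the values were seen, differed within the cluster too. Pvalb, the calcium-binding protein parvalbumin, was 7.04-fold higher (5.35 to 9.38) in all mTEC1 and 2.62-fold (1.98 to 3.52) within TEC-d. Reg3b, an antimicrobial lectin, was 7.42-fold (6.84 to 8.05) and 2.69-fold (2.48 to 2.92) higher, and Ifitm10 8.11-fold (5.36 to 12.7) and 3.36-fold (2.16 to 5.44). On the lower side Fmod, a matrix proteoglycan, was 0.0773-fold (0.0501 to 0.114) and 0.196-fold (0.106 to 0.343), and Pcdh9, a protocadherin, 0.0704-fold (0.0502 to 0.0962) and 0.236-fold (0.146 to 0.373). Ccl21 stood at 15066 and 24748 CPM within TEC-d. Of 6 cell cycle genes, Mki67, Top2a and Ccnb1 were higher over all mTEC1, and within TEC-d Mki67 was 0.983-fold (0.717 to 1.36). S100a8, S100a9, RatNP-3b, Camp, Np4 and Defa5 led the list by size, with between 59.0% and 78.4% of their UMIs in 1 cell. The only measured Fezf2-dependent gene, Maoa, a monoamine oxidase, was 0.721-fold (0.498 to 1.03). Fibroblast markers summed to 1993 CPM with Fezf2 and 3123 without, mural markers to 1256 and 481 CPM and thymocyte genes to 34.6 and 43.5 CPM. Acta2 gave 2909 of the 2943 mural UMIs with Fezf2 and 1919 of 1968 without. Myeloid markers summed to 17.5 and 2.44 CPM, with 34 of the 41 UMIs with Fezf2 in 1 cell and Lyz2 at 7.57-fold (3.61 to 17.8), and the part of these markers in the differences was not tested.

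Genes with the pattern most like each regulator were ranked by Pearson r of log2(CPM + 1) over 24 labels of this 1 library, among 13997 genes. For Aire these were Ibsp (r = 0.995), Dnmt3l, a cofactor of DNA methylation (0.973), Cyp26a1 (0.970), Cd86 (0.969) and the granzyme gene Gzmc (0.967). Ibsp stood at 824 CPM in mTEC2, 247 in mTEC-prol and 0.155 in mTEC1. For Fezf2 they were Calcb, a calcitonin gene-related peptide (0.961), the homeobox gene Irx4 (0.955), Skint2 (0.948), Anks1b (0.932) and the zinc-finger gene Insm1 (0.930). Irx4, like Fezf2, was present in all 3 mTEC labels, at 80.0, 84.1 and 31.6 CPM. Aire and Fezf2 correlated with each other at 0.826, and Fezf2 ranked 64 among the genes most like Aire. With so few labels carrying either gene, r rests on the mTEC labels.

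In the thymocyte library, Fezf2 and Aire outside the label of B and myeloid cells were rare, with 17 Aire UMIs in 14 of 8376 cells, 0.274 CPM (0.160 to 0.439), and 0 Fezf2 UMIs, which allows up to 0.0595 CPM. The 170 B and myeloid cells held 16 Aire UMIs in 5 cells, 6.69 CPM (3.83 to 10.9), and 10 Fezf2 UMIs in 3. Of the 5, the cell with most Aire had 9 Aire UMIs, 8 Fezf2 UMIs and 191 UMIs of epithelial markers beside 1 of B cell markers. The next had 4 Aire UMIs, 34 UMIs of the 5 B cell markers, 0 epithelial and 0 Fezf2 UMIs. The others held 1 Aire UMI each. A double-negative thymocyte held 4 of the 17 Aire UMIs outside this label. The 179 B cells of the stromal library held 0 Aire UMIs, which allows up to 1.29 CPM.

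The 2934 stromal barcodes without a label held a large share of both transcripts. They carried 243 of the 899 Aire UMIs of the matrix, 27.0%, at 28.0 CPM (24.6 to 31.8), and 329 of 1282 Fezf2 UMIs, 25.7%, at 38.0 CPM (34.0 to 42.3). Against fibroblasts the Aire level was 76.4-fold (51.9 to 117). The UMIs lay in 51 and 83 barcodes, and the 10 barcodes with most Aire held 69.1% of it.

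Most of this came from 67 barcodes with over 6999 genes, more than any labelled cell. They held 161 Aire UMIs in 11 barcodes, 66.3% of the unlabelled Aire, and 240 Fezf2 UMIs in 25 barcodes. The barcode with most Aire held 29 Aire and 36 Fezf2 UMIs among 56442 UMIs and 8520 genes, with 70 UMIs of Epcam, 141 of Ccl22, 25 of Cd80 and 0 of Mki67. The next held 24 Aire and 27 Fezf2 UMIs with 53 of Epcam, 0 of Ccl22 and 106 of Mki67. Of the 11, 10 held Epcam, and 9 held at least 9 Aire UMIs. Their fibroblast marker UMIs ran from 1 to 438 and their thymocyte UMIs from 0 to 15, and whether they are single cells was not tested.

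At 5000 UMIs the 11 gene-rich barcodes with Aire had a median of 2529 genes, and the 30 without Aire but with 10 or more Epcam UMIs 2521. Both medians lay above those of the 10 epithelial labels, which ran from 2289 in mTEC2 to 2470 in mTEC-prol. These barcodes were set apart by their number of genes, so that difference is a description. Labelled mTEC2 cells with at least 6000 genes were 6, all Aire-positive, and 9 of 23 such mTEC-prol cells were positive, while 0 of 48 such mTEC1 cells were. Over all cells of these labels, Aire was found in 65.6%, 31.6% and 0.622%. The 6 mTEC2 cells held 21371 to 39743 UMIs, against a median of 13378 in the label, and depth was not matched in this count.

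The other unlabelled barcodes held less. The 828 with a gene number in the labelled range but 5% or more mitochondrial ribosomal UMIs held 68 Aire UMIs in 27 barcodes, 20.4 CPM (15.9 to 25.9), and 78 Fezf2 UMIs in 47. The 2039 with fewer genes than any labelled cell held 14 Aire UMIs in 13 barcodes, 6.12 CPM (3.34 to 10.3), and 11 Fezf2 UMIs. Over the whole matrix 37 barcodes had 9 or more Aire UMIs, of which 27 carried epithelial labels and 10 no label. Of the 76 with 2 or more, 52 were epithelial, 24 unlabelled and 0 of any other label.

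**Figure D5:**
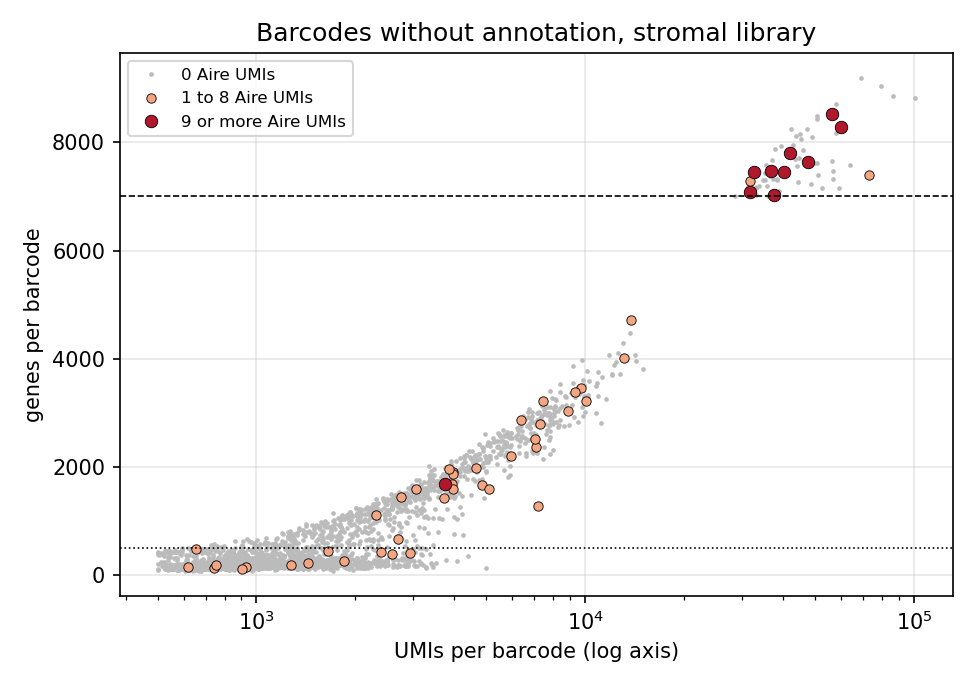
Genes against UMIs (log axis) for the 2934 stromal barcodes without a label, coloured by Aire UMIs; the dashed and dotted lines mark the highest (6999) and lowest (501) gene number of a labelled cell. Of the 10 barcodes with 9 or more Aire UMIs, 9 lie above the dashed line.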

How the data were processed

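The authors deposited unnormalized UMI counts for both droplet libraries. Cell Ranger 8.0.0 is named per the file headers, and the submitters' processing notes add the build mRatBN7.2 and Seurat 5.3.0. Labels are the authors' (projected label, otherwise cluster). The percent of mitochondrial UMIs that the authors deposited equals the share of the 2 mitochondrial ribosomal RNA genes. UMIs were summed per label and given as CPM; labels under 20 cells are given by counts. Labelled cells summed to 131624350 UMIs for stroma and to 64440495 for thymocytes. No doublet caller was run and no cell was removed.

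Cells were thinned at random (seed 7). Aire-positive means at least 1 Aire UMI before thinning. Ratios compare summed UMIs; a count of 0 is set to 3 for a lower bound, and all counts under 3 for calls and ranks. Genes were named as members of lists with at least 20 UMIs, as the 10 largest ratios in each direction between Aire-positive and Aire-negative mTEC2 cells on at least 100 UMIs, or as the 5 most like each regulator; the same ratios in mTEC-prol, mTEC1 and mTEC2 over mTEC1 were added after seeing the data; genes with only an identifier were left out. The members and lists were chosen with earlier results of these data known. On simulated data for Aire-positive against Aire-negative mTEC2 (1588 genes), the fold rule called 100% of genes raised 4-fold, 99.0% of those lowered 4-fold and 0.0756% of unchanged genes. All simulated cells of a group shared the same composition, so these shares cover counting error and not the spread between cells. They hold for genes on at least 100 UMIs, not for list genes on at least 20 UMIs. On cells simulated from the mTEC1 composition at 2 depths (34034 genes), thinning brought the ratio of genes per cell from 1.57 to 0.999. Software was Python 3.11.15 with pandas 2.3.3, SciPy 1.17.1 and NumPy 2.4.6; figures used matplotlib 3.10.9. Promoters came from the RefSeq table of GRCr8.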

Additional observations from a re-analysis of the deposited data

How the results depend on the processing

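Over 30 results and 120 alternative values, 68 stayed near the main value, 49 moved and 3 turned direction. For levels, shares and ratios of levels, near meant within the main value's interval. Counts of genes had to lie within 1.5 times the main value, and ratios of genes per cell within 1.5 times on the log scale. For the genes most like each regulator and for r, fixed margins were used. As the mean of the cells' CPM, Aire in mTEC2 was 413 CPM, Fezf2 185 CPM in mTEC2 and 43.5 CPM in mTEC1, and the Fezf2 ratio of mTEC2 to mTEC-prol 0.744. With totals free of mitochondrial, ribosomal protein and haemoglobin genes, Aire stood at 532 CPM in mTEC2 and 169 CPM in mTEC-prol, and Fezf2 at 281 CPM in mTEC-prol and 61.2 CPM in mTEC1. Without cells with 3 or more thymocyte UMIs, Aire stood at 393 CPM in mTEC2 and 126 CPM in mTEC-prol, and without its highest cell at 127 CPM in mTEC-prol. By the authors' clusters alone, both genes were highest in TEC-d, Aire at 101 CPM and Fezf2 at 147 CPM.

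With cells thinned to 2000 UMIs, Aire was found in 45.6% of mTEC2 and 12.3% of mTEC-prol cells, and Fezf2 in 28.1% of mTEC2, 30.1% of mTEC-prol and 7.30% of mTEC1 cells. At 5000 UMIs, Aire in mTEC-prol was at 20.6% and Fezf2 in mTEC1 at 16.1%. Asking for 2 UMIs, Aire in mTEC2 was at 50.8%, and Fezf2 at 42.6% of mTEC2 and 15.6% of mTEC1 cells.

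The ratio of genes per cell in mTEC2 was 0.985 at 2000 UMIs, 0.913 at 10000 UMIs and 0.977 with no random draw. It turned to 1.23 below the label's median mitochondrial share and to 1.00 in paired cells. In mTEC-prol it was 0.956 at 2000 UMIs, 0.951 without mitochondrial and ribosomal protein genes and 0.952 below the median mitochondrial share. Over all epithelial labels it turned to 1.00 at 2000 UMIs, and was 0.993 without cells with 3 or more thymocyte UMIs, 0.991 with no random draw and 0.946 in paired cells. The cause was not tested.

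Unlabelled barcodes with over 500 genes held Aire at 35.9 CPM and Fezf2 at 49.9 CPM, and those under 20% mitochondrial UMIs 34.9 and 46.9 CPM. In mTEC2 the number of genes called higher was 48 on thinned cells, 157 without cells with 3 or more thymocyte UMIs and 1125 on at least 20 UMIs, and of those lower 17 on thinned cells and 988 on at least 20 UMIs. In mTEC-prol it was 53 and 726 higher, and 60 and 1420 lower, on thinned cells and on at least 20 UMIs; thinned cells leave fewer genes to test. Of the 5 genes most like Aire, 3 were kept with labels of at least 50 cells and 3 on CPM without log, and for Fezf2 3 and 1.

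The calculation with no random draw, the 20 UMI minimum, the removal of each gene's highest cell, the list counts without cells with thymocyte UMIs and the comparison within TEC-d were chosen after seeing the data. No paired analysis was possible because the comparisons involve a single sample apiece. With 61 mTEC2 and 76 mTEC-prol cells from 1 library, intervals cover counting error only, and 1 cell held 351 of 373 Tff3 UMIs in mTEC2.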
